A study of Mus musculus with 2 samples.

Results

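Cholesterol synthesis, transport and turnover are described here through 36 genes chosen by name, all of which were found among the 55536 annotated genes. They are 18 enzymes of the synthesis pathway from acetoacetyl-CoA to cholesterol, 7 genes of sterol sensing and transcription, and 11 genes of uptake, efflux, intracellular transport and removal. RNA was measured by total RNA sequencing of hippocampal tissue from 2 adult female B6CASTF1/J mice, a hybrid strain with a C57BL/6J and a CAST/EiJ parent. The age in the labels is 8 to 10 months. No treatment is given in the labels. The libraries form 1 group of n = 2, so there is no comparison of conditions, only levels and how far the animals differ. The labels name a layer of the hippocampus as the tissue without saying which layer. A single donor identifier is attached to both samples, yet their animal numbers are 1 and 5, so they were treated as 2 mice, on which each SD and ratio depends.

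Cholesterol hardly crosses the blood-brain barrier, so the brain makes its own. In the adult brain, astrocytes are known to make cholesterol and pass it to neurons on particles that carry apolipoprotein E, and oligodendrocytes use large amounts of it for myelin. Cells sense their sterol level through SCAP and the INSIG proteins, which hold the SREBP transcription factors in the endoplasmic reticulum when sterols are plentiful. The LXR receptors, activated by oxysterols, turn on efflux genes. Neurons remove cholesterol mainly by 24-hydroxylation through CYP46A1, and the product leaves the brain.

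Depth was 34147402 expected counts on annotated genes in replicate 1 and 28356913 in replicate 2. The unit of level is TPM, a share of all transcripts after correction for transcript length, with n = 2 behind each SD. Detection required a TPM of 1 or more. Gene coordinates are on mm10. Markers of granule cells (4 of 4), of CA1 (3 of 3) and of CA3 (3 of 3) were detected in both libraries, so the labelled tissue carried its defining transcripts. Their log2 count ratios, replicate 2 over replicate 1, ran from -0.45 to 0.43, -0.21 to 0.57 and -0.49 to 0.43 respectively. Markers of other cells differed too. The 12 choroid plexus markers summed to 33.6 TPM in replicate 1 and 657.7 TPM in replicate 2. Among them Ttr, which encodes the choroid plexus transport protein transthyretin, stood at 21.8 and 615.0 TPM. The 7 oligodendrocyte markers summed to 1498 and 1566 TPM, with a median log2 count ratio of 0.42 for replicate 2 over replicate 1. Their ratios were spread from -0.05 for Mbp, the highest of them in TPM, to 0.81. The 6 astrocyte markers summed to 1357 and 1391 TPM, with a median log2 ratio of -0.07 and a range from -0.27 to 0.18. The 6 microglia markers summed to 134 and 143 TPM. The 4 meningeal fibroblast markers summed to 46.4 and 35.0 TPM, with a median log2 ratio of -0.51. Of these 4, 3 were lower in replicate 2 and 1 was not, over a range from -0.76 to 0.11. The part of these cell differences in the ratios below was not tested, and in bulk tissue fewer cells of a type and less RNA per cell cannot be told apart.

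Every one of the 36 genes was detected in both animals. Their levels spanned from 2.10 ± 0.969 TPM for Nr1h3 to 870.2 ± 44.5 TPM for Apoe, with a median of 25.2 TPM. The median over the 13010 protein-coding genes detected in both animals was 17.5 TPM, with quartiles of 7.01 and 38.9 TPM. Of the 36 genes, 24 lay above that median and 9 above the upper quartile. Only 5 genes exceeded 50 TPM, 27 lay between 10 and 50 TPM and 4 were under 10 TPM. Their levels summed to 2047 and 2046 TPM in replicates 1 and 2, of which Apoe alone held 44.0% and 41.0%.

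**Figure D1:**
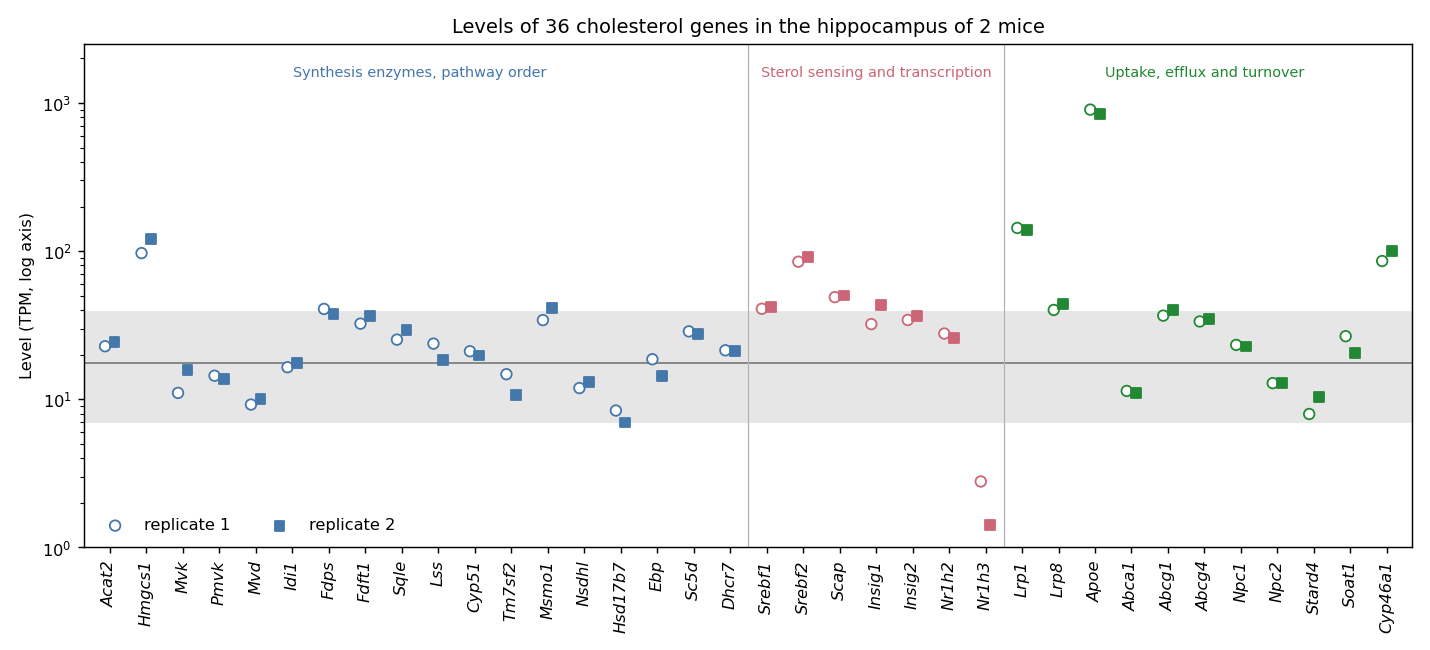
Level of each gene in TPM on a log axis, with open circles for replicate 1 and filled squares for replicate 2, coloured by role and with the synthesis enzymes in pathway order. The grey band spans the quartiles of detected protein-coding genes, 7.01 to 38.9 TPM, and the line is their median of 17.5 TPM. Apoe stands above all others, and Nr1h3 is the lone gene below the band in both animals.

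The synthesis enzymes were a group of moderate levels with a single high member near the entry of the pathway. Hmgcs1 (chromosome 13, 119690379 to 119708260), which makes HMG-CoA from acetoacetyl-CoA and acetyl-CoA, was at 97.0 and 121 TPM in replicates 1 and 2. It held 21.4% and 25.2% of the summed TPM of the 18 enzymes, and its mean of 109 ± 17.1 TPM ranked 894 among the detected protein-coding genes. By mean TPM, Fdps, which makes farnesyl diphosphate, was next at 40.7 and 37.8 TPM, and Hmgcs1 stood 2.38 and 3.21 times above it. In replicate 2 Msmo1, at 41.5 TPM, was above Fdps, so the order of Fdps and Msmo1 differed between the animals. Both animals placed Hmgcs1 above every other synthesis enzyme measured here, and its lead over Fdps exceeded the SD of either gene. The enzymes summed to 452 and 480 TPM.

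Around Hmgcs1, the other enzymes of the part of the pathway that ends in squalene were spread over a few-fold range. Acat2, which condenses acetyl-CoA to acetoacetyl-CoA, was at 22.8 and 24.3 TPM. The kinases and the decarboxylase that turn mevalonate into isopentenyl diphosphate were lower: Mvk (mevalonate kinase) was at 11.1 and 15.8 TPM, and Pmvk (phosphomevalonate kinase) at 14.4 and 13.6 TPM. Mvd, the decarboxylase, was lowest of these at 9.22 and 10.1 TPM. Idi1, which interconverts the isopentenyl diphosphate isomers, was at 16.5 and 17.6 TPM. Fdft1, squalene synthase and the committed step towards sterols, was at 32.4 and 36.5 TPM.

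After squalene, Msmo1, Sc5d and Sqle had the highest levels. Sqle, squalene epoxidase, was at 25.3 and 29.3 TPM, and Lss, which closes the ring to lanosterol, at 23.8 and 18.5 TPM. Removal of the lanosterol methyl groups takes Cyp51 (21.1 and 19.8 TPM), Tm7sf2 (14.8 and 10.8 TPM), Msmo1 (34.2 and 41.5 TPM), Nsdhl (11.9 and 13.1 TPM) and Hsd17b7 (8.40 and 6.98 TPM). Msmo1, the C4-methyl oxidase, was thus the highest of these 5 in both animals, and Hsd17b7, the ketoreductase that acts with it, the lowest. The late steps held Ebp, the sterol isomerase, at 18.6 and 14.4 TPM, Sc5d, the C5 desaturase, at 28.7 and 27.7 TPM, and Dhcr7, which reduces 7-dehydrocholesterol to cholesterol, at 21.4 and 21.2 TPM. The second transcript table put Dhcr7 (30.02 and 25.1 TPM) above Sc5d (23.3 and 24.0 TPM), so the order of this pair depended on the quantification.

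Among the sensing genes, Srebf2 led in both transcript quantifications. Srebf2 (chromosome 15, 82147181 to 82205379), whose protein SREBP-2 is the main activator of the synthesis enzymes, was at 84.8 and 91.1 TPM. Srebf1, whose products act more on fatty acid genes, was at 40.8 and 42.0 TPM, and Srebf2 exceeded it 2.08-fold and 2.17-fold. Scap, the escort that carries the SREBPs to the Golgi, was next at 48.9 and 50.2 TPM. The INSIG genes lay close together, with Insig1 at 32.2 and 43.3 TPM and Insig2 at 34.3 and 36.7 TPM, and their order differed between the animals. The second transcript table put Insig2, at 45.7 and 47.4 TPM, above both Insig1 (28.9 and 40.0 TPM) and Scap (34.6 and 36.7 TPM) in each animal, so these orders depended on the quantification. Of the LXR receptors, Nr1h2 (LXR beta) was at 27.8 and 25.9 TPM and Nr1h3 (LXR alpha) at 2.79 and 1.42 TPM. Nr1h2 exceeded Nr1h3 by 9.96-fold and 18.2-fold, on 74 and 41 counts for Nr1h3.

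Apoe led the carriers and receptors by a wide margin. Apoe (chromosome 7, 19696109 to 19699188) was at 902 and 839 TPM, rank 23 among detected protein-coding genes. Lrp1, an endocytic receptor for apolipoprotein E particles, was at 143 and 139 TPM, and Lrp8, the reelin receptor that also binds apolipoprotein E, at 40.1 and 44.2 TPM. Apoe therefore exceeded Lrp1 by 6.29-fold and 6.04-fold, and Lrp1 exceeded Lrp8 by 3.58-fold and 3.14-fold. Of the efflux pumps, Abcg1 was at 36.7 and 40.1 TPM and Abcg4 at 33.5 and 34.8 TPM, while Abca1, which loads lipid onto nascent particles, was lower at 11.4 and 11.0 TPM. Abcg1 exceeded Abca1 by 3.22-fold and 3.65-fold.

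Inside the cell, Npc1, the lysosomal membrane protein that exports cholesterol, was at 23.3 and 22.7 TPM, and its soluble partner Npc2 at 12.9 TPM in both libraries. Stard4, a cytosolic sterol carrier, was at 7.96 and 10.3 TPM. The storing and the removing enzyme differed: Soat1, which esterifies cholesterol, was at 26.7 and 20.6 TPM, and Cyp46a1 (chromosome 12, 108334381 to 108362234) at 85.8 and 101 TPM. Cyp46a1 thus exceeded Soat1 by 3.22-fold and 4.90-fold. In the order of all 36 levels, the gap between Hmgcs1 and Cyp46a1 and that between Cyp46a1 and Srebf2 did not exceed the SDs, nor did those between neighbours among the 7 genes from Fdps to Abcg4, whose means ran from 39.3 down to 34.1 TPM.

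Differences between the animals were small. Ratios are replicate 2 over replicate 1, from expected counts scaled by the trimmed mean of M-values (TMM), and intervals are exact 95% counting intervals that cover counting error only. None of the 36 genes reached a 2-fold difference with an interval excluding 1 and 50 or more counts on average, a criterion met by 1.10% of the 14434 genes tested. The log2 ratios ran from -0.57 for Nr1h3 to 0.40 for Insig1. Their median was 0.0028 and the median of their sizes 0.14, against -0.02 and 0.14 over all genes tested. The interval excluded 1 for 22 of the 36 (61.1%), against 44.3% of all genes tested. Of these, 12 were higher in replicate 2 (18.7% of all genes) and 10 lower (25.6% of all genes). These shares describe 2 libraries, not a condition, and they depend on the counts of a gene, since intervals narrow as counts rise.

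A caution on direction comes from the ERCC spike-ins, synthetic RNAs added to each library, which took 0.178% of counts in replicate 1 and 0.212% in replicate 2. Scaling on them moved the median log2 ratio of all genes to -0.26, and the split of the 36 genes became 2 higher and 25 lower. This scaling moves every gene by nearly the same amount, so directions below are relative to other genes. Of the 36 genes, 19 lay above the all-gene median. Of the 12 genes higher in replicate 2, 8 had a negative log2 ratio under spike-in scaling. Of these 8, Srebf1, Srebf2 and Lrp1 then had intervals below 1, while those of Cyp46a1, Sqle, Stard4, Msmo1 and Lss included 1.

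**Figure D2:**
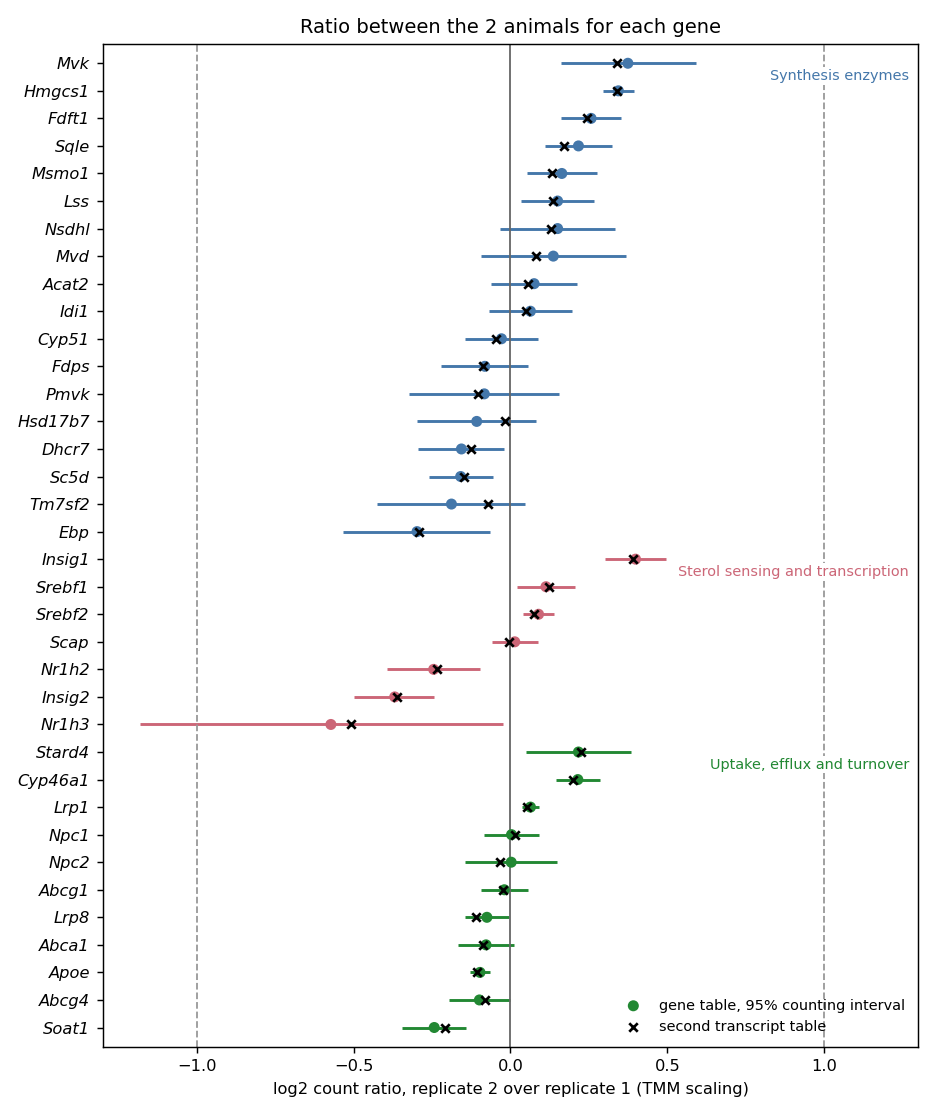
Log2 count ratio of replicate 2 over replicate 1 for each gene, sorted within its role. Dots with lines are the gene table with 95% counting intervals, crosses the second transcript table, and dashed lines mark 2-fold. All dots lie between the dashed lines, with Insig1 at 0.40 and Insig2 at -0.37 near the ends of the sensing group.

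Among the synthesis enzymes, 6 intervals lay above 1 and 3 below. The 18 enzymes had a median log2 ratio of 0.07, which is 0.09 above the all-gene median, and of -0.17 under spike-in scaling. For the 8 enzymes up to squalene the median was 0.11, with 3 intervals above 1 and none below (18.7% and 25.6% over all genes), and their summed level was 244 and 277 TPM. Of the 10 enzymes from squalene onwards, 3 intervals lay above 1 and 3 below, the latter near the all-gene share, with a median of -0.07 and sums of 208 and 203 TPM. Whether these stretches of the pathway differ was not tested.

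Hmgcs1 and Mvk had the highest ratios among the enzymes. Hmgcs1 had 6341 and 6726 expected counts, a log2 ratio of 0.34 with an interval from 0.29 to 0.39, so that replicate 2 was higher although its library was smaller. Mvk had 342 and 371 counts and a log2 ratio of 0.37 with a wide interval, from 0.16 to 0.59. Fdft1 followed at 0.26 and Sqle at 0.22, then Msmo1 at 0.16 and Lss at 0.15. The 3 enzymes with intervals below 1 belong to the last steps, Ebp at -0.30, Sc5d at -0.16 and Dhcr7 at -0.16. Lower values were not confined to these steps, as 8 of the 18 enzymes had negative log2 ratios. Tm7sf2 was at -0.19, Hsd17b7 at -0.11, Pmvk and Fdps at -0.08 and Cyp51 at -0.03, all with intervals that included 1. The interval of Dhcr7 did not exclude 1 in the second transcript table.

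The INSIG genes went in opposite directions in counts. Insig1 (chromosome 5, 28071363 to 28078662), which is itself a target of the SREBPs, had 1637 and 1804 counts and a log2 ratio of 0.40 with an interval from 0.30 to 0.50. Insig2 (chromosome 1, 121304353 to 121332589) had 1280 and 828 counts and a log2 ratio of -0.37 with an interval from -0.50 to -0.24. These were the highest and the second lowest of the 36 ratios, and the intervals lay far apart. The second transcript table gave 0.39 and -0.36, and spike-in scaling 0.16 and -0.61, so the signs held in each.

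The other sensing genes differed less. Srebf1 had a log2 ratio of 0.11 and Srebf2 of 0.09, both turned by spike-in scaling (-0.13 and -0.15), and Scap lay at 0.01. Both LXR genes were lower in replicate 2, Nr1h2 at -0.24 and Nr1h3 at -0.57. For Nr1h3 the interval ran from -1.18 to -0.02, and in the second transcript table it no longer excluded 1. Rxra, which encodes an RXR partner of the LXR receptors, was at -0.51 with 1535 and 901 counts, the lowest of the 5 LXR partners and targets. Rxrb was at -0.19 and Rxrg at -0.15, the latter with an interval that included 1. The 5 ratios reached up to 0.03, with 2 intervals below 1 and none above (25.6% and 18.7% over all genes).

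Among the transport and turnover genes, Cyp46a1 and Stard4 had the highest ratios and Soat1 the lowest. Cyp46a1 was at 0.21 and Stard4 at 0.22, with -0.029 and -0.026 under spike-in scaling, and Soat1 was at -0.24. Lrp1 was at 0.06 and Apoe at -0.10, with narrow intervals that excluded 1, on 25619 and 22378 counts for Lrp1 and 19285 and 15069 for Apoe. Lrp8 was at -0.08 and Abcg4 at -0.10, both losing their calls when libraries were scaled by total counts. Abca1, Abcg1, Npc1 and Npc2 had intervals that included 1. The 11 genes had a median of -0.02, equal to that of all genes, and summed to 1323 and 1275 TPM.

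TPM and counts did not give the same direction for 8 of the 36 genes (22.2%), against 13.1% of all genes with both values. For most of these both ratios were small. In 3 genes, Lss, Insig2 and Nr1h3, the log2 ratios from TPM and from counts were at least 0.3 apart after centring on all genes, as in 6.10% of all genes. Lss had 1271 and 1179 counts, a log2 count ratio of 0.15, but a log2 TPM ratio of -0.36. Insig2 had a count ratio of -0.37 and a TPM ratio of 0.10 on the log2 scale.

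**Figure D3:**
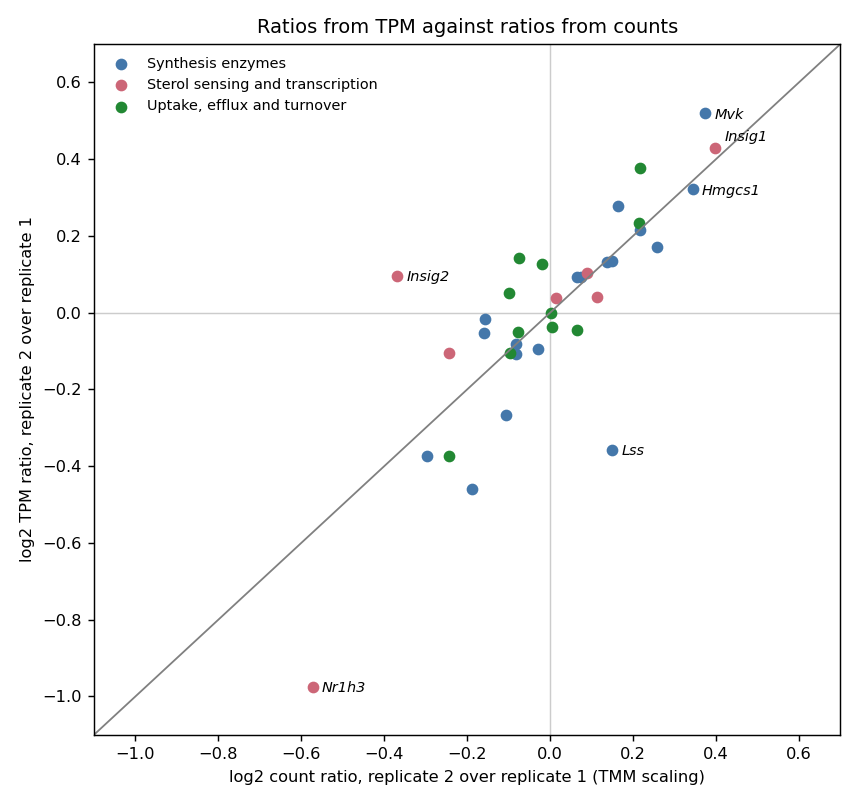
Log2 TPM ratio against log2 count ratio, replicate 2 over replicate 1, with 1 dot per gene coloured by role and the line of equality. Most genes lie near the line, whereas Lss lies below it at 0.15 on the count axis and -0.36 on the TPM axis, and Insig2 above it at -0.37 and 0.10.

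Short annotated transcripts carried these gaps in Lss and Insig2. The 4 Lss transcripts under 1000 bases held 84.5 and 36.6 counts but 12.8 and 6.37 TPM, since TPM divides by transcript length. The 4 longer ones held 1187 and 1142 counts and 11.0 and 12.2 TPM, so their level was not lower in replicate 2. For Insig2, the 10 transcripts under 1000 bases held 95.4 and 134 counts and 12.7 and 21.5 TPM. The 4 longer ones held 1185 and 694 counts and 21.6 and 15.2 TPM, all of it in Insig2-201. The length limit of 1000 bases was chosen after these values were seen. The summed levels of Lss, Insig2 and Srebf1 thus rest partly on short models with few reads: 9 short models of Srebf1 held 18.9 and 17.5 of its 40.8 and 42.0 TPM on 175 and 146 counts.

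Most of the 36 genes kept their leading transcript between animals and tables. In 27 the same transcript led in both animals and in both transcript tables. Such a lead could be slight: Abcg4-208 held 40.2% and 28.9% of TPM in the first table and 29.5% and 25.5% in the second. Apoe-209 held 91.7% and 91.8% of the TPM of Apoe in the first table and 77.0% and 79.8% in the second. For Hmgcs1 the tables disagreed: Hmgcs1-202 led the first with 66.4% and 68.9%, and Hmgcs1-201 the second with 70.4% and 74.3%. Both are protein-coding, and their starts lie close together, at bases 119690464 and 119690446 of chromosome 13. Lss, Soat1 and Nr1h2 each had 3 leading transcripts over the 2 tables and 2 animals, none above 37.1% of TPM.

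Srebf1 is known for a pair of isoforms with different first exons, 1a and 1c, which the files do not name. Its coding transcript with the upstream start at base 60220604 of chromosome 11, Srebf1-201, held 30.2% and 27.6% of its TPM. The one starting downstream at base 60210465, Srebf1-207, held 16.3% and 22.3%, and the second table gave 36.5% and 30.3% against 12.5% and 14.8%. Srebf1-201 was therefore more abundant than Srebf1-207 in both animals and tables. A further model, Srebf1-204, starts further upstream, near base 60222581. It held 20.7% and 13.4% of TPM in the first table and 0% in the second.

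Protein-coding models held a median of 90.3% and 88.4% of the TPM of the 36 genes, near the 88.6% and 88.0% of all detected protein-coding genes. Models with a retained intron, which keep unspliced sequence, held a median of 5.96% and 6.09%, against 2.67% and 2.88% over all. Lss stood apart. Its coding models held only 27.4% and 28.7% of its TPM and models with a retained intron 45.5% and 50.7%, and by counts, where short models weigh little, coding models held 38.2% and 31.1%. In the second table the coding share of Lss was 32.2% and 23.6%. In the first table, 1 of the 36 genes lay below 50% of TPM in replicate 1 and 2 in replicate 2, when Lrp8 joined at 49.9%. Over all genes the shares were 11.6% and 11.9%. The second table had 2 and 3 such genes, against 13.9% and 14.3% of all. Among them was Nr1h3, at 45.65% and 40.9%. Total RNA libraries also hold RNA that is still being spliced, and its share was not measured here.

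**Figure D4:**
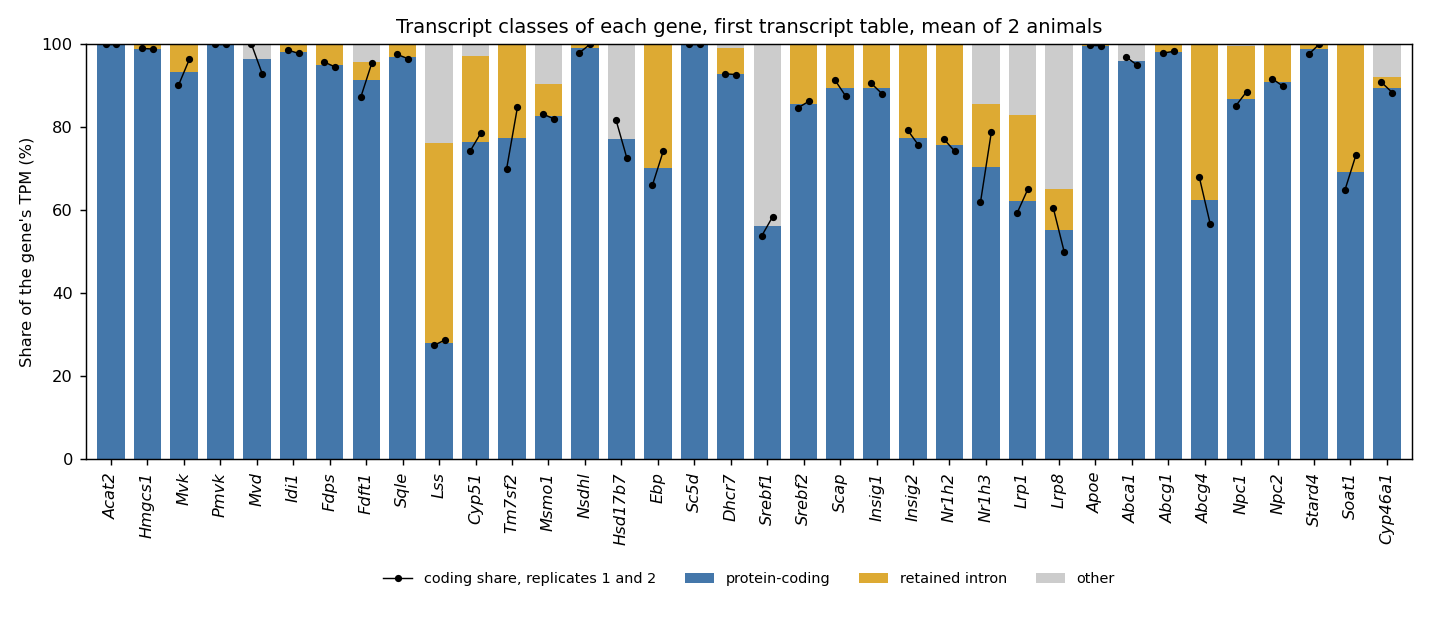
Share of each gene's TPM in protein-coding (blue), retained-intron (yellow) and other (grey) transcript models of the first table, as the mean of 2 animals, with dots for the coding share in replicates 1 and 2. The bar of Lss is mostly yellow and grey, with coding shares of 27.4% and 28.7%, while Apoe, Sc5d, Pmvk and Acat2 are almost fully blue.

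Promoter sequences of RefSeq were available for 29 of the 36 genes, as windows of 250 bases before to 50 after each start on GRCm38.p6. SREBP-responsive promoters are known to pair a sterol element with boxes for NF-Y and Sp1. The letters TCACNCCAC, a form of the sterol element, were found on either strand in Hmgcs1 alone, against 1.44% of the 27025 genes with a promoter. The NF-Y box CCAAT was found in 21 of the 29 genes (72.4%), against 41.1% of all genes and 42.8% of the 10135 with a promoter that were detected as protein-coding. Counted per promoter, which does not favour genes with several starts, it was in 22 of 42 (52.4%), against 37.4% of 32851. Pmvk, Idi1 and Insig2 counted through a promoter with no first-table TPM from transcripts starting within 100 bases of its start. That share was also low for the promoters through which Msmo1 (8.09% and 20.15%) and Dhcr7 (3.74% and 25.8%) counted. For Idi1 the value rests on the limit of 100 bases. Its RefSeq start lies at base 8885606, and Idi1-201 starts just outside the limit, at base 8885501. That transcript held 98.54% and 95.85% of first-table TPM. Of the 15 synthesis enzymes with a promoter, 14 held the NF-Y box, all but Acat2, while 4 of 7 sensing genes and 3 of 7 transport genes did. The Sp1 box GGGCGG was found in 24 of 29 genes (82.8%), against 69.8% of the detected protein-coding genes. The E-box CACGTG was found in 6 of 29 (20.7%, against 11.7%). These matches are letters in a window, not sites of binding, and short motifs occur often by composition.

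The sequences before the start are printed for Hmgcs1, Mvk and Insig1, the 3 genes with the highest ratios, and for Ebp, the enzyme with the lowest, as far as no annotated exon covers them. Capitals mark CCAAT, or ATTGG where it lies on the other strand, and in Hmgcs1 also the sterol element letters. All are 5′ to 3′ on the gene's strand.
Hmgcs1: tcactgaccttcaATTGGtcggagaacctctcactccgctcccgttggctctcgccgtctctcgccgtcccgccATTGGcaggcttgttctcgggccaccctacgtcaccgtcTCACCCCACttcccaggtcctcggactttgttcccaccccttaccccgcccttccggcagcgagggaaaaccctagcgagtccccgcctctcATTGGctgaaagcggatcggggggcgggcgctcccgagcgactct
Mvk: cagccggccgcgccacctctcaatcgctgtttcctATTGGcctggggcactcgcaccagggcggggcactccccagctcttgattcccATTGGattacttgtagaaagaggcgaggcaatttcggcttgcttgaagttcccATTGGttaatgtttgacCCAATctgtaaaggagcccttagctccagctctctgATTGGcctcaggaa
Insig1: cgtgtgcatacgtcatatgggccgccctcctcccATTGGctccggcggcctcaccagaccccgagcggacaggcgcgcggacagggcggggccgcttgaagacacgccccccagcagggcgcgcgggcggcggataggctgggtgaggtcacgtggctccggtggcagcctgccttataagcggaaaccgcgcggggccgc
Ebp: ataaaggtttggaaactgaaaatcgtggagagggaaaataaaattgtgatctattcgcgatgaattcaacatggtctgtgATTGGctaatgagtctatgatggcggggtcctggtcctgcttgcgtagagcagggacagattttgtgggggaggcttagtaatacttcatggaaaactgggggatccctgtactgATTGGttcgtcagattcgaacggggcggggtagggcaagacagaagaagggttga
These lie at chr13:119690101-119690350 (plus strand), chr5:114444061-114444268 (plus), chr5:28071162-28071362 (plus) and chrX:8193513-8193762 (minus). In Hmgcs1 the letters TCACCCCAC begin 137 bases before the RefSeq start at base 119690351, and NF-Y boxes begin 237, 176 and 45 bases before it. Transcripts starting within 100 bases of it held 32.6% and 29.9% of first-table TPM, and 83.4% and 83.7% in the second table. These shares depend on the limit of 100 bases, which fell between close starts. Hmgcs1-201, at base 119690446, lay inside it, and Hmgcs1-202, at base 119690464, just outside. Mvk has 5 NF-Y boxes, the nearest beginning 14 bases before its start. Insig1 has a lone box beginning 216 bases before its start, and Ebp has boxes beginning 170 and 55 bases before its start. For Ebp the share of first-table TPM within 100 bases of the RefSeq start was 31.45% and 37.3%.

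Neighbouring genes can share reads with members. Exons of 11 of the 36 genes overlap an exon of another gene, in 8 genes on the opposite strand and in 4 on the same. The largest such partner in counts was Ctsb, which overlaps Fdft1 by 774 bases on the opposite strand and had 10368 and 9080 counts against 1751 and 1749 for Fdft1. Akap9 overlaps Cyp51, Rai1 overlaps Srebf1 and Rmc1 overlaps Npc1 in the same way, and Vps51 overlaps Tm7sf2 by 532 bases on the same strand. Not given in the sources used here is the strand setting of the counting, so the values of Fdft1, Cyp51, Srebf1, Npc1 and Tm7sf2 are less certain. The deposited posterior SD of read assignment was above 0 in 6 of the 36 genes and in none large against counting error.

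A wider set of 56 genes in 8 lists places these levels within lipid metabolism. All 56 were found, 54 were detected in both animals, and none of the 53 tested met the 2-fold criterion, which 1.10% of all genes met. Their median log2 ratio was -0.02, with 10 intervals above 1 and 18 below, against 18.7% and 25.6% of all genes. In fatty acid synthesis, Scd2, a stearoyl-CoA desaturase, was highest at 334 and 344 TPM and Elovl6, a fatty acid elongase, lowest at 17.9 and 14.8 TPM. In the lipoprotein list, Clu (clusterin) was at 459 and 457 TPM and Apoc1 at 2.57 and 1.54 TPM.

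The lists nearest to SREBP control were at moderate levels. Of the genes for SREBP cleavage and sterol-driven degradation, Rnf139, a ubiquitin ligase, was lowest at 9.91 and 10.7 TPM, and 1 of 7 intervals lay above 1 and none below (18.7% and 25.6% over all genes). In the isoprenoid branch, which draws on farnesyl diphosphate, Coq2 of ubiquinone synthesis was highest at 42.9 and 39.9 TPM and Pdss1 lowest at 9.95 and 9.04 TPM. None of its 9 intervals lay above 1 and 4 lay below (18.7% and 25.6% over all genes), with a median log2 ratio of -0.08.

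Receptors and intracellular carriers completed the lists. Sorl1, a sorting receptor for apolipoprotein E particles, led its list at 91.4 and 106 TPM, and Lrp4 was lowest at 14.8 and 13.2 TPM. Gramd1b, which moves sterol from the plasma membrane to the endoplasmic reticulum, was at 83.9 and 72.6 TPM, and Gramd1c at 2.68 and 1.88 TPM. In that list of 10, 6 intervals lay below 1 and 1 above (25.6% and 18.7% over all genes), with a median of -0.14. Of the LXR partners and targets, Rxrb was highest at 40.6 and 37.8 TPM and Rxrg lowest at 3.32 and 3.29 TPM.

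Cyp46a1 stood far above the other enzymes that hydroxylate cholesterol or its products. Cyp7b1, which hydroxylates oxysterols, was the highest of that list at 14.9 and 12.2 TPM, and Ch25h, the 25-hydroxylase, was lowest at 0 and 0.13 TPM, with 0 and 3 counts. Cyp27a1, the 27-hydroxylase, was at 2.93 and 2.42 TPM. Cyp46a1 at 85.8 and 101 TPM thus exceeded each of the 5 in both animals.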

How the data were processed

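Total RNA of 2 hippocampi, 300 ng for each library, with ERCC spike-ins, was quantified on mm10 and the GENCODE M21 annotation, according to notes deposited beside the tables. Not given in the sources used here are aligner, tool versions and strand setting. The authors deposited a gene table and a first transcript table in RSEM layout, and a second transcript table in kallisto layout. Expected counts and, in the second table, estimated counts were deposited without normalisation. TPM and FPKM were deposited by the authors after length normalisation. The percent of a gene's TPM per transcript was deposited and was recomputed here. Posterior SDs of counts, a signal column per the file headers, were used to judge read assignment.

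Of 81881 entries, the 55536 annotated genes entered library sizes. Expected counts were rounded and scaled by TMM in edgeR 4.0.16 (R 4.3.3), giving effective sizes of 34038040 and 28448001, with a prior count of 2. Exact Clopper-Pearson 95% intervals of ratios leave out all but counting error, as they rest only on the 2 counts of a gene. No molecular identifiers are mentioned in the labels, so repeated copies of a molecule cannot be told apart and the intervals may be too narrow. The 2-fold criterion (log2 ratio beyond 1 either way, interval excluding 1, 50 or more counts on average) was tested on simulated data. It compares libraries, not conditions, and no p-value was computed. A gap between levels is stated where it exceeded the SD of both genes with the same sign in both animals. DESeq2 1.42.0 size factors, total counts, spike-ins, the second table, other minima and priors, FPKM, and leaving out a replicate were alternatives. The 36 genes, the lists and the motifs were chosen with earlier results of these data known. All 36 genes are named, and from each further list the highest, the lowest and any 2-fold gene, except 1 that is not reported here. Rxra, Cyp27a1, Mbp and the overlapping neighbours were named after their values were seen. Protein sequences were not used here.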

Additional observations from a re-analysis of the deposited data

How the results depend on the processing

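No paired analysis was possible because the libraries form 1 group and no groups were compared. None of the 36 genes met the 2-fold criterion under any of 7 alternatives. The count of intervals excluding 1 was 22, and 20 to 27 under the 5 alternatives. DESeq2 size factors and a prior count of 0.5 moved no call. Total counts ended 2 calls (Lrp8 and Abcg4), and the second table ended 3 (Nr1h3, Abcg4 and Dhcr7) and added Abca1. Spike-in scaling, which lowers every ratio by the same shift, moved the median log2 ratio of synthesis enzymes from 0.07 to -0.17, of sensing genes from 0.01 to -0.23 and of transport genes from -0.02 to -0.26. It turned the sign of Srebf1 (-0.13), Srebf2 (-0.15), Cyp46a1 (-0.0285), Sqle (-0.0262), Stard4 (-0.0258), Msmo1 (-0.0792), Lss (-0.0926) and Lrp1 (-0.18). Of these 8, 3 stayed called (Srebf1, Srebf2 and Lrp1) and 5 lost their call, as did Mvk and Fdft1 with their sign kept. It also added 12 calls, all lower in replicate 2.

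The summed level of synthesis enzymes, 466 TPM, was 424 TPM in the second table, 934 when TPM was rescaled to nuclear protein-coding genes and 288 FPKM. That of transport genes, 1299 TPM, was 1163, 2602 and 803. Leaving out 1 animal gave 452 to 480 and 1275 to 1323 TPM. All 36 genes stayed detected except under FPKM (35), and leaving out 1 animal left 36. The leading transcript of the first table also led in the second for 29 genes, and in single animals for 34 to 35. Levels of the tables correlated across the 36 genes (Spearman 0.97, a description over genes, which are not replicates), with second over first from 0.72 for Scap to 1.31 for Insig2. With 2 animals an SD is itself imprecise, and 41 to 74 counts limit Nr1h3.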
